A study of Mus musculus with 2 samples.

Results

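Itaconate is made from an intermediate of the tricarboxylic acid (TCA) cycle, and the 9 genes described here are Irg1, which encodes the itaconate-forming enzyme, and 8 enzymes of the TCA cycle or close relatives of them: Cs, Aco1, Idh1, Idh2, Idh3a, Ogdh, Sdha and Mdh2. Irg1 is the array's name for the gene now called Acod1. The genes were picked by their gene name in the scanner files, and they were chosen with the differences between these arrays already known, so the values below are a description and no test was made on them. The 9 genes had 18 probes of 1 spot each, among 15715 RefSeq-named genes that were measured on both arrays, and all 9 were measured. A gene counted as measured when at least 1 of its probes was well above background on both arrays, by the scanner software's own call.

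Monocytes of the spleen from ICR mice, an outbred stock, were sorted with antibodies to CD11b and Ly6C, and their RNA was read on 1-colour Agilent arrays. One group had a sham operation and the other a 5/6 nephrectomy (5/6Nx), a surgical loss of kidney tissue used as a model of chronic kidney disease, and both were sampled 8 weeks after the operation. Each group was 1 array, so there is no replicate error and no p-value, and the age, the sex and the number of mice behind each RNA sample are not given in the sources used here. Values are log2 of the spot intensity minus the array's 75th percentile, differences are 5/6Nx minus sham, and the ± after an intensity is the scanner software's own error estimate for a single spot.

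The TCA cycle oxidises acetyl groups in mitochondria. Citrate synthase (Cs) joins acetyl-CoA to oxaloacetate, aconitase turns citrate into isocitrate by way of cis-aconitate, isocitrate and oxoglutarate dehydrogenases release carbon dioxide, and succinate and malate dehydrogenases return the carbon to oxaloacetate. Irg1 takes cis-aconitate out of the cycle and decarboxylates it to itaconate. In macrophages and monocytes Irg1 is known as a gene switched on by bacterial products and interferons, and itaconate is known to inhibit succinate dehydrogenase.

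The probe sequences are shown for the 4 genes with the largest differences, because the reading of each gene rests on them. Each line gives the first 30 of the 60 bases of a probe, 5′ to 3′ and in the sense of the transcript, with the probe's position in the mouse build mm9 as the files give it. Exon and UTR annotation of that build was not used here.
Irg1, chr14:103455171-103455231, plus strand: agacagtttgacttggggtggtgaacagtg
Idh1 downstream probe, chr1:65206035-65206094, minus strand: ttatggacaaacttggagaaaacttgaagg
Idh1 upstream probe, chr1:65221829-65221888, minus strand: gcaaggagacgaaatgacacgaatcatttg
Idh2 downstream probe, chr7:87239736-87239795, minus strand: gtaatttatattgctctggaatcacatggt
Idh2 upstream probe, chr7:87242779-87242838, minus strand: ctataagactgacttcgacaggaataagat
Aco1 downstream probe, chr4:40145117-40145176, plus strand: cagtgttaactgacatagcatagaccttct
Aco1 upstream probe, chr4:40114200-40122732, plus strand: ccatccaggttgatttcaacagaagggcag
The Aco1 upstream probe covers 8533 bases of the genome with 60 bases of sequence, so its bases lie in separate pieces of the genome, whereas the other Aco1 probe and the Idh1 and Idh2 probes lie on an unbroken stretch.

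Irg1 was far higher on the 5/6Nx array, Idh1 was far lower, Idh2 was lower by about the 2-fold limit, Aco1 was just short of that limit, and the 5 other enzymes differed by less. Of the 9 genes 1 was at least 2-fold higher, where 12.2% of all measured genes were, and 2 were at least 2-fold lower, where 11.0% of all measured genes were. The choice of genes used this contrast, so nothing is read from those shares. The count of lower genes was 1 with quantile scaling, with spike-in scaling and in the authors' value table, since Idh2 then missed the limit at -0.99, -0.70 and -0.99. The median over the 8 TCA cycle genes was -0.53, against -0.12 over all measured genes. With spike-in scaling both medians moved up, to -0.17 and 0.24, so the order between them was kept while the sign of the second was not. The 8 include Aco1 and Idh1, which are not mitochondrial enzymes, and the NADP-dependent Idh2. Over the other 5, a split made after the values were seen, the median was -0.42 and none was 2-fold apart. In bulk RNA of sorted cells, fewer cells of a type and less RNA per cell cannot be told apart, and this holds for every difference below. Intensities of different probes are not compared with each other, since probes differ in how brightly they bind.

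**Figure D1:**
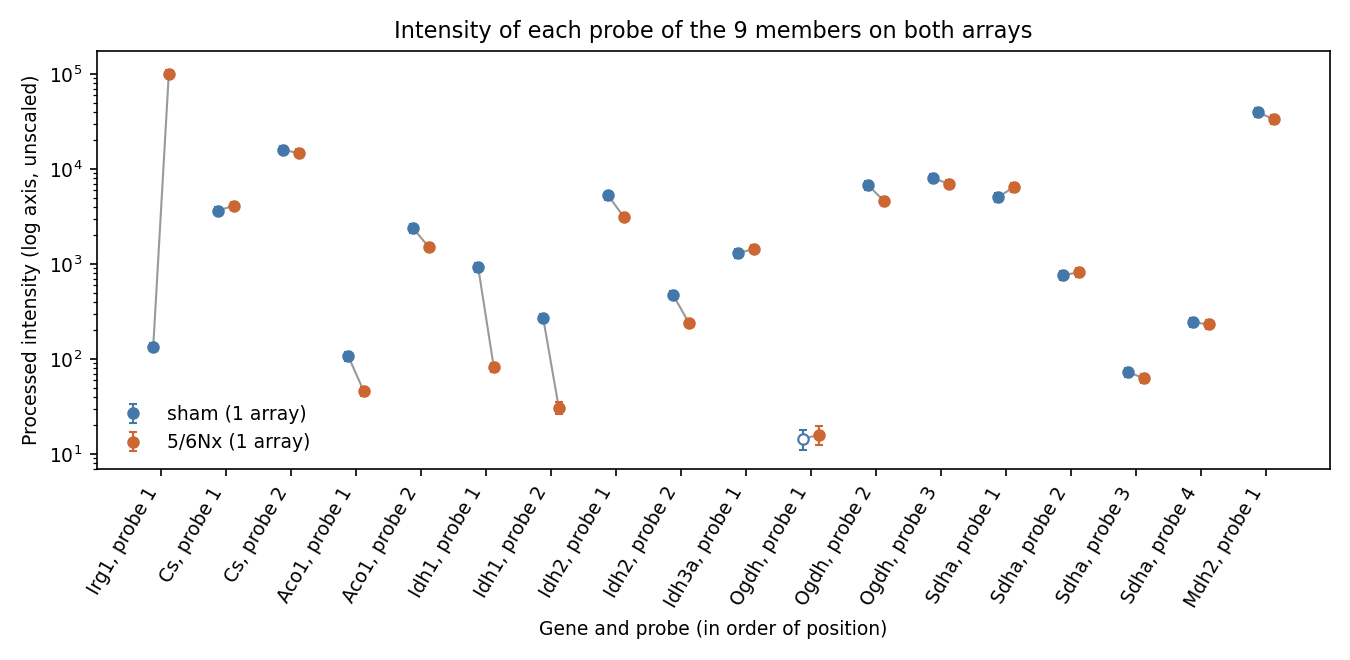
Processed intensity (log axis, before scaling) of each of the 18 probes in the sham and the 5/6Nx sample, with the scanner software's error as bars and an open circle for a spot not well above background. Irg1 goes from 134 to 100854, the Idh1 probes go from 922 to 82.2 and from 270.1 to 30.8, and the probes of Cs, Idh3a, Ogdh, Sdha and Mdh2 stay close together.

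The intensity of Irg1 was 134 ± 13.7 in the sham sample and 100854 ± 10085 after 5/6Nx. Relative to the 75th percentile the sham value was -1.71 and the 5/6Nx value 7.53. The gene was therefore above background in both samples, below the 75th percentile in the sham sample and far above it in the 5/6Nx sample. The difference was 9.25, a 607-fold higher signal, with an error of 0.21 from the software's estimates. Only 5 of 15715 genes had a larger difference upward. It ranged from 8.78 with normexp background correction to 9.61 with spike-in scaling over 9 alternatives. A single probe measured Irg1, so no second probe of the gene bears on this value.

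Immunoglobulin and T cell receptor segments were left out of the search for genes whose difference lay closest to that of Irg1. Closest among the rest were Saa3, an acute phase protein, at 9.22, Gbp2, an interferon-induced GTPase, at 9.20, and Gzma, a granzyme of cytotoxic lymphocytes, at 9.55. Nos2, the inducible nitric oxide synthase, at 8.90, and AA467197, at 8.83, came next. Likeness was the distance between differences over 1 pair of arrays, which ran from 0.028 for Saa3 to 0.41 for AA467197. Saa3 went from an intensity of 319 to 235395 and Gbp2 from 46.9 to 34173. AA467197, whose sham intensity was 14.7, gave 6.60 with normexp, Nos2 gave 7.97, Gzma 8.01, Gbp2 8.02 and Saa3 9.02.

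Genes for the signals that are known to induce Irg1 were measured as a list of 17, of which 9 were at least 2-fold higher and none lower. Of all measured genes 12.2% were at least 2-fold higher and 11.0% lower, and every list count below is to be set beside these shares. The lists were chosen with earlier results of these data known. The median was 1.28 and stayed between 1.13 and 1.64 over the alternatives, against -0.12 for all genes. Irf7, an interferon regulatory factor, had the largest difference at 7.41, and the cytokine Tnf was at 4.64 and Irf1, another interferon regulatory factor, at 4.45. The 4 chains of the interferon receptors on the list, Ifnar1, Ifnar2, Ifngr1 and Ifngr2, named after their values were seen, were within 2-fold by their brightest probe, from -0.27 to 0.18, while the 4 probes of Ifnar1 ran from -1.26 to 0.32 and the 2 of Ifnar2 from -0.54 to 0.16.

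The promoter of Acod1 is shown because Irg1 is the member with the largest difference and is known as a gene that inflammatory signals switch on. The 250 bases upstream of its start, from RefSeq on the build GRCm38.p6, plus strand, run over chr14:103046762-103047011. Capitals mark, in order, matches to GGAANTTCC (a symmetric NF-kappaB motif), to AANNGAAA (the core motif of interferon regulatory factors) and to TATAAA (the TATA box).
Acod1 promoter: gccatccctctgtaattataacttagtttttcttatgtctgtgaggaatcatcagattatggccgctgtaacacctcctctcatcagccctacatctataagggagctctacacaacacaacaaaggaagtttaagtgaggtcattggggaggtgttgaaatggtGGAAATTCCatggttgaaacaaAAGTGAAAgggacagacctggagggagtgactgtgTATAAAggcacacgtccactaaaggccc
The NF-kappaB match starts 85 bases before the start site, the interferon regulatory factor match 63 and the TATA match 28, all read on the plus strand, and none overlaps another. Of 32851 promoter windows of the same length 0.813% held the first motif on either strand, 21.3% the second and 12.4% the third. A match describes letters and shows no binding. The motifs were chosen with the Acod1 sequence in view, so its matches were known beforehand. Nothing is therefore read from these shares or from the windows of the other genes. The Acod1 window had no match to the paired form of the interferon regulatory factor motif, which 2.98% of all windows held. It also had none to the STAT motif called GAS, which 7.02% held. No match was found in the Acod1 window to TGACNNNGC, the Nrf2 motif, which 10.2% of all windows held, while GGAAGT, the PU.1 core, matched once, as in 19.7% of all windows. The NF-kappaB and TATA motifs were in none of the 13 windows of the 7 TCA cycle genes with a promoter entry (Cs, Aco1, Idh1, Idh2, Ogdh, Sdha and Mdh2), and the interferon regulatory factor core was in 3 of them, 1 of Cs and 2 of Ogdh that overlap. The Acod1 window held 2 CpG dinucleotides, whereas the 13 windows of those 7 genes held 9 to 35 and the median of all windows was 6.

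**Figure D2:**
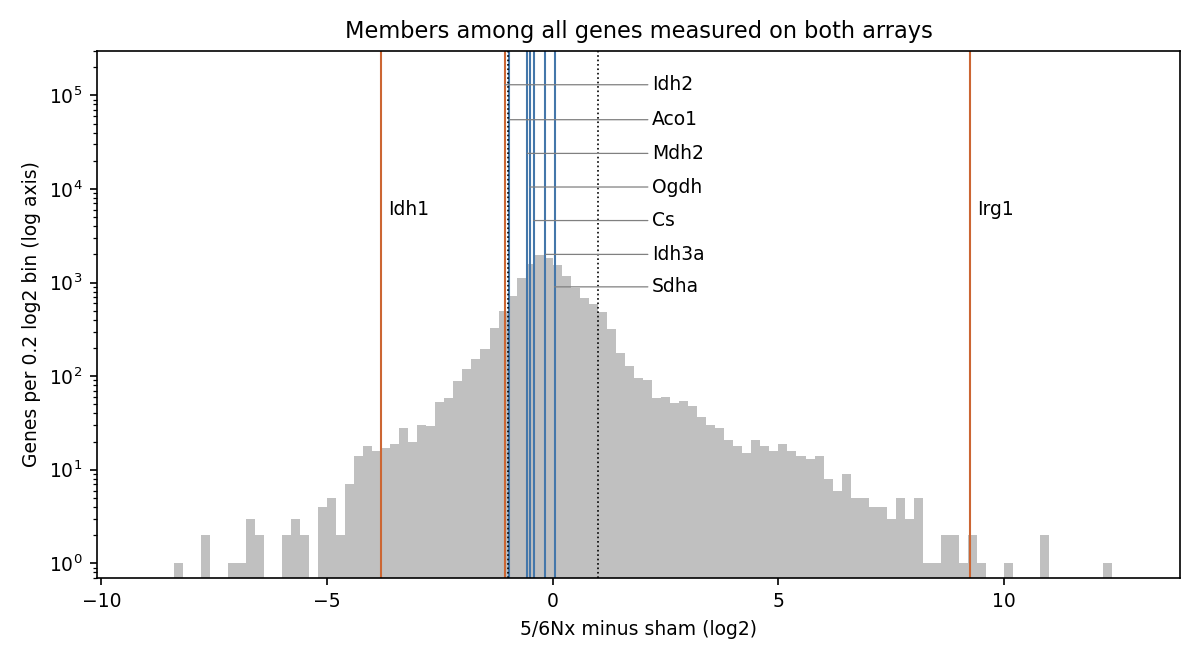
Histogram of the difference (5/6Nx minus sham, log2) over the 15715 genes measured on both arrays, with a log axis for the number of genes and a vertical line for each of the 9 members; dotted lines mark 2-fold. Irg1 at 9.25 and Idh1 at -3.80 lie in the tails, and the other 7 lie between -1.06 and 0.04.

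The 3 isocitrate dehydrogenases among the 9 genes had unlike differences: 13.9-fold lower for Idh1, near 2-fold lower for Idh2 and close to the median of all genes for Idh3a. Idh1, the NADP-dependent enzyme of the cytosol and peroxisomes, read 922 ± 92.3 in the sham sample and 82.2 ± 8.71 after 5/6Nx with its downstream probe. The upstream probe read 270.1 ± 27.2 and 30.8 ± 4.61. Both probes were thus lower in the 5/6Nx sample, with differences of -3.80 ± 0.21 and -3.44 ± 0.26 and the software's error. That is a 13.9-fold and a 10.9-fold lower signal. Only 83 of 15715 genes had a larger difference downward than Idh1. The 5/6Nx intensities are low, and with normexp the differences were -3.05 and -2.02.

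Idh2, the NADP-dependent enzyme of mitochondria, read 5267 ± 527 against 3130 ± 313 with its downstream probe and 471 ± 47.2 against 241 ± 24.3 with its upstream probe, sham first. The differences were -1.06 and -1.27, a 2.09-fold and a 2.42-fold lower signal. Both lie on the same side of 0 and near the 2-fold limit, and the brighter probe ran from -1.21 to -0.70 over the alternatives. Idh3a, the catalytic subunit of the NAD-dependent enzyme that serves the TCA cycle itself, read 1301 ± 130.1 and 1444 ± 144. Its difference was -0.16 ± 0.20, smaller than the software's error, and its sign turned with spike-in scaling, to 0.21. The partner subunits Idh3b and Idh3g, named here after their values were seen, differed by 0.14 and -0.58, with the sign of the first turning to -0.01 under median scaling.

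Aco1 is the cytosolic aconitase, which doubles as an iron regulatory protein when it lacks its iron-sulphur cluster. It read 2379 ± 238 in the sham sample and 1506 ± 151 after 5/6Nx with its downstream probe, a difference of -0.97. The upstream probe, which lies in separate pieces of the genome, read 107.2 ± 11.1 and 45.8 ± 5.49, a difference of -1.54, or -0.96 with normexp. Both probes were lower in the 5/6Nx sample, and the gene lay just inside the 2-fold limit, or just beyond it when scaled on the median (-1.12) or averaged over probes (-1.25). Ireb2, the other iron regulatory protein, differed by -0.12, and by 0.24 with spike-in scaling.

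Cs, which opens the cycle, read 15914 ± 1591 and 14723 ± 1472 with its brighter probe, a difference of -0.42 ± 0.20, and 3650 ± 365 and 4114 ± 411 with the other, a difference of -0.14 ± 0.20. Both probes were within 2-fold. Mdh2, the mitochondrial malate dehydrogenase that closes the cycle, read 39682 ± 3968 and 33297 ± 3330, a difference of -0.56. Ogdh, the first component of the oxoglutarate dehydrogenase complex, read 8017 ± 802 and 6999.8 ± 700.0 with its brightest probe, a difference of -0.51, and 6762 and 4634 with the next, a difference of -0.86. Its dimmest probe was near background, at 14.4 (not well above background) and 16.0, and gave no difference.

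Sdha, the flavoprotein subunit of succinate dehydrogenase and so part of the enzyme that itaconate inhibits, had 4 measured probes. The probe that stands for the gene read 5055 ± 505 and 6443 ± 644, a difference of 0.04 ± 0.20. The 3 dimmer probes read 763 and 819, 244 and 231, and 72.8 and 62.9, sham first, with differences of -0.21, -0.39 and -0.52. The gene was within 2-fold on every probe, with a sign that depends on the probe and, for the first, turns to -0.11 with median scaling. The other subunits Sdhb, Sdhc and Sdhd differed by 0.59, -0.08 and -0.12, the last 2 with the other sign, 0.28 and 0.24, under spike-in scaling.

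**Figure D3:**
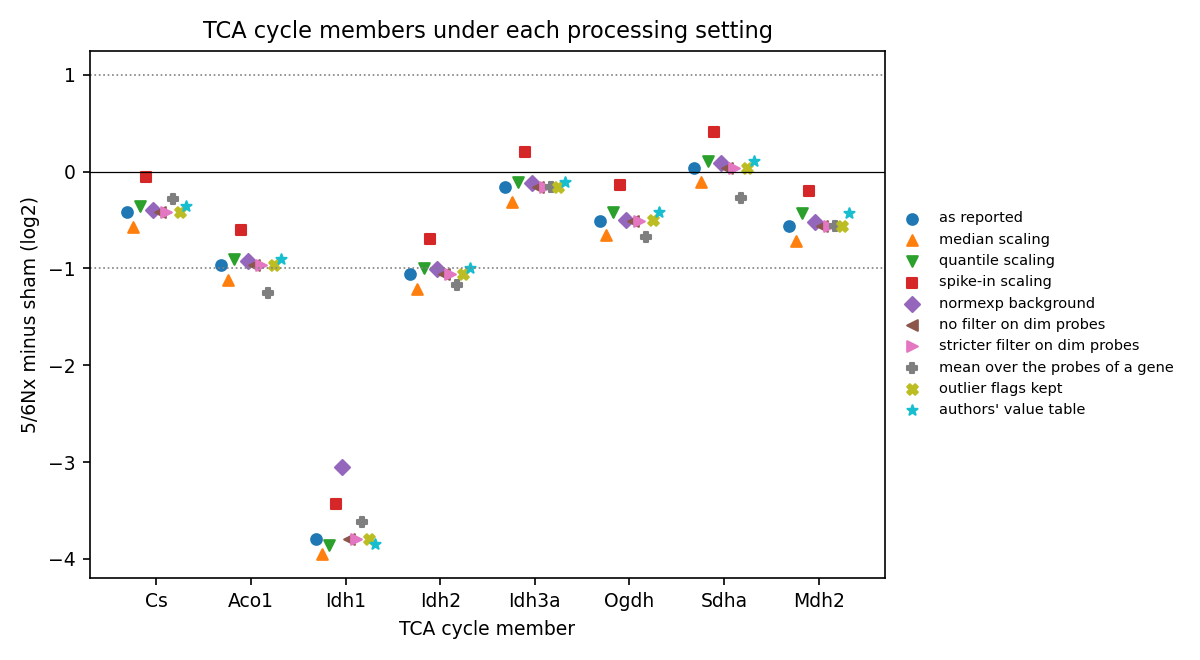
Difference (5/6Nx minus sham, log2) of each of the 8 TCA cycle members as reported and under 9 processing alternatives, with dotted lines at 2-fold. Idh1 stays between -3.95 and -3.05, Idh2 and Aco1 straddle the lower dotted line, and the other 5 stay between -0.71 and 0.40.

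The rest of the TCA cycle was followed through 15 further enzymes, subunits and assembly factors, all of them measured. None was at least 2-fold higher and 1 was at least 2-fold lower, where 12.2% and 11.0% of all measured genes were. Their median of -0.08 turned positive with spike-in scaling, to 0.28, as the median of all genes did. The lower gene was Suclg2, the GTP-forming subunit of succinyl-CoA synthetase, at -1.38, with its 3 probes between -1.38 and -0.89. The largest difference upward was that of Sdhb, the iron-sulphur subunit of succinate dehydrogenase, at 0.59.

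Among 13 genes of pyruvate entry 12 were measured, with 1 at least 2-fold higher, 1 lower and a median of -0.20, or 0.17 with spike-in scaling. Pdk3 and Pdk2, kinases that switch pyruvate dehydrogenase off, went opposite ways, at 1.30 and -1.94. Pdk4, another such kinase, read 31.8 in the sham sample and 2.86 (not well above background) after 5/6Nx, a signal at least 2.88-fold lower. This bound sets the sham value against 13.7, the dimmest signal that passed as well above background after 5/6Nx.

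Of 11 genes that carry citrate, malate and aspartate between mitochondria and cytosol 10 were measured, with 1 higher, 2 lower and a median of -0.53, or -0.16 with spike-in scaling. Me1, the cytosolic malic enzyme that makes NADPH, differed by -1.97, and its 2 probes lay between -2.31 and -1.97. Slc25a1, the mitochondrial citrate carrier, differed by -1.15, or -0.79 with spike-in scaling. Slc25a12, an aspartate-glutamate carrier, differed by 1.29, with its 5 probes from 0.69 to 1.29. Me3, a mitochondrial malic enzyme, cleared background after 5/6Nx only, and was at least 1.38-fold higher.

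Of 12 genes of glutamine entry 11 were measured, with 1 higher, 4 lower and a median of -0.35, or 0.01 with spike-in scaling. Glul, the glutamine synthetase, went from 20830 to 912, a difference of -4.82 with its 3 probes between -5.18 and -4.82. The transaminase Gpt2 differed by -1.03, or -0.76 with normexp. The glutamine transporter Slc38a2, named after its values were seen, was also lower, at -1.03, with its 2 probes at -1.03 and 0.37. Aldh5a1, which feeds succinate from the breakdown of GABA, was close to background on the sham array at 16.0 and differed by 2.06, or 0.63 with normexp. Gls2, a glutaminase, cleared background after 5/6Nx only, and was at least 1.25-fold higher.

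Handling of itaconate was followed in 8 genes, of which 7 were measured, 1 was higher and 1, Suclg2 again, was lower. The median was -0.14, and it turned to 0.23 with spike-in scaling, to 0.23 with the stricter filter on dim probes and to 0.03 with the mean over probes. The higher gene was Slc13a3, a sodium-coupled transporter of dicarboxylates that is known to carry itaconate, which went from 119 to 7052. Its difference was 5.58, with 1 probe and a range from 5.05 to 5.94 over the alternatives. The enzymes that break itaconate down, apart from Suclg2, were within 2-fold. Oxgr1, the receptor for oxoglutarate and itaconate, was not well above background on either array.

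Genes whose products have been reported as targets of itaconate were a list of 12, all measured, with 3 higher, 1 lower and a median of 0.39. Nfkbiz, which encodes IkappaB-zeta, differed by 3.27, Gsdmd, the pore protein gasdermin D, by 1.57, and the inflammasome sensor Nlrp3 by 1.32, or 0.69 with normexp. The lysosomal regulator Tfeb differed by -1.31, but its 4 probes ran from -1.31 to -0.33 and it gave -0.31 with normexp. Of 7 genes of succinate sensing and the hypoxia factor HIF 6 were measured, with 1 higher, 1 lower and a median of -0.46. Il1b, the interleukin-1 beta gene, differed by 7.57 with its 3 probes from 4.75 to 7.57, the oxygen sensor Egln3 by -4.03, and Sucnr1, the succinate receptor, was not well above background on either array.

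**Figure D4:**
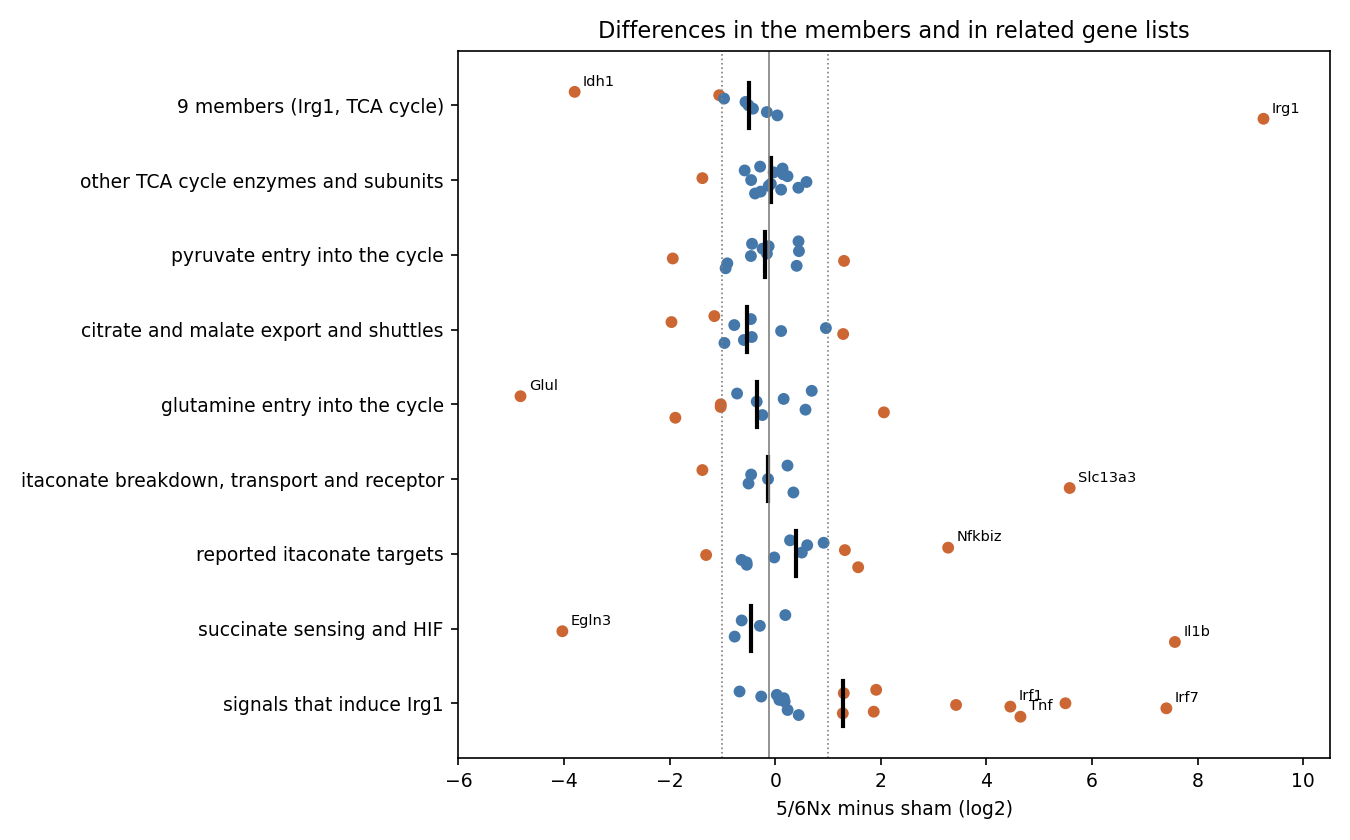
Difference (5/6Nx minus sham, log2) of every measured gene of the 9 members and of 8 related lists, with a black bar at the median of each list, dotted lines at 2-fold and a grey line at -0.12, the median of all genes; names are given for some genes beyond 8-fold. Most TCA cycle genes lie within 2-fold, and the list of signals that induce Irg1 has its median above 2-fold.

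The genes of the sort antigens were bright in both samples: Itgam, which encodes CD11b, differed by -0.36, and Ly6c1 and Ly6c2, which encode Ly6C proteins, by 1.98 each. The monocyte genes Csf1r, Cd14 and Lyz2 were also bright in both, with differences of -0.26, 0.30 and -0.52. Over the 10 monocyte markers 4 were at least 2-fold higher and 1 lower, where 12.2% and 11.0% of all measured genes were. Their summed level, in multiples of the array's 75th percentile, was 1284 in the sham sample and 1609 in the 5/6Nx sample. This rise lay in the sort antigen genes Ly6c1 (43112 to 210831) and Ly6c2 (43666 to 213343), whose readings were nearly alike. The remaining monocyte markers together summed to less in the 5/6Nx sample. For the other cell types the sums did not all differ in the same direction. The platelet sum was lower in the 5/6Nx sample, and the remaining sums were higher by widely different amounts. Of 10 T cell markers 7 were higher, 1 more cleared background after 5/6Nx only, and their sum went from 7.38 to 59.7. Of 8 NK cell markers 4 were higher, the other 4 cleared background after 5/6Nx only, and the sum went from 0.750 to 77.3. The sums were 1.75 and 3.93 for 7 B cell markers (1 higher, 3 after 5/6Nx only), 1.07 and 3.53 for 7 conventional dendritic cell markers (1 higher, 2 after 5/6Nx only, 1 in the sham sample only), and 96.6 and 178 for 6 red pulp macrophage markers (2 higher, 1 lower, 1 after 5/6Nx only). For 9 neutrophil markers they were 275 and 300.4 (2 higher, 1 lower, 1 after 5/6Nx only), and most of both sums came from Csf3r, which differed by 0.25. Ly6g differed by 4.53, Camp by 2.18 and Mmp8 by -3.97, and the granule genes Ltf and Retnlg were not well above background on either array. Of 5 platelet markers 2 were lower and 1 was after 5/6Nx only, with sums of 409 and 25.0, mostly from Pf4, which differed by -4.31. Of 5 erythroid markers 1 was higher and 1 was in the sham sample only, with sums of 0.571 and 3.32. The part of these cells in the differences of Irg1, Idh1 and the other members was not tested.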

How the data were processed

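Scanner output was deposited as linear intensity per spot, made with Agilent Feature Extraction (10.7.1.1 per the file headers, 9.5.1.1 per the submitters' processing notes). Per the file headers, spatial and multiplicative detrending were on, the background correction setting was off and surrogate values were in use for low spots. The authors' table gives 1 linear intensity for each of 52145 probes (median 47.5 for sham, 48.2 for 5/6Nx), and how it was normalized is not stated in the sources used here. Across probes the log2 of its values tracked the log2 of the scanner values at r = 0.9996 (sham) and 0.9998 (5/6Nx), so it has the same direction. It was treated as linear, and its medians show that it is not centred.

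Of 59305 non-control spots per array 41 (sham) and 47 (5/6Nx) had an outlier flag and were left out on both arrays, and none was saturated. The share well above background was 63.0% (sham) and 67.0% (5/6Nx), and the subtracted 75th percentiles were those of 439 and 544 intensity units. Spots of one probe were averaged, and the brightest probe measured on both arrays stood for a gene. Probes were named through a RefSeq table of GRCm38.p6 by accession (32994), symbol (10224) or synonym (520), and 12867 were unmatched. Members were matched by the name in the files. Promoters of 8 of the 9 members were matched in RefSeq's table, and that of Idh3a was not. Calls use a difference of at least 2-fold, with no test. The spread of the difference between spots of one probe had a median SD of 0.037 over 283 bright probes. This leaves out labelling, sorting and animals, and the number of arrays limits the precision. Steps were run in Python 3.11.15 and limma 3.58.1. The spot averaging and the 75th percentile scaling were tested on simulated data in which only bright probes were changed. Changes in dim probes, the choice of a probe per gene and the alternatives were not covered by it. In the pathway lists, named were the genes at least 2-fold apart, up to 4 by size, or the 2 with the largest differences, any gene above background on 1 array only, and the 5 genes closest to Irg1. Some genes that this rule names are not reported here. The members and lists were chosen with earlier results of these data known, and motifs with the promoter sequence in view. Alternatives were median, quantile and spike-in scaling, normexp (offset 50), 2 filters on dim probes, the mean over probes, kept flags and the authors' table.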

Additional observations from a re-analysis of the deposited data

How the results depend on the processing

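No paired analysis was possible because each group is 1 array, and leaving out a replicate could not be done for the same reason. Irg1 kept its direction and stayed at least 2-fold higher in all 9 alternatives, at 9.10 with median scaling, 9.28 with quantile scaling, 9.61 with spike-in scaling and 8.78 with normexp. The median of the 8 TCA cycle genes stayed below 0 in all 9, at -0.68 with median scaling, -0.42 with quantile scaling, -0.17 with spike-in scaling, -0.62 with the mean over probes and -0.42 in the authors' value table. The count of genes at least 2-fold lower was 1 with quantile scaling, 1 with spike-in scaling and 1 in the authors' value table, and 3 when scaled on the median or averaged over probes. Idh1 was at least 2-fold lower in 9 of 9 alternatives, Idh2 in 6 and Aco1 in 2. No called value changed sign. Since the median of all genes lay between -0.27 (median scaling) and 0.24 (spike-in scaling), small differences have no settled sign. The stricter filter on dim probes left out Suclg2, Pdk2, Gpt2, Aldh5a1 and Nlrp3, among others, which therefore have no value under it. Signal over background limits the sizes for Idh1 on the 5/6Nx array and for Irg1 on the sham array.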
